A study of Homo sapiens with 32 samples.

Results

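JQAD was one of 4 compounds given to the alveolar rhabdomyosarcoma line RH4, an established human line with the PAX3-FOXO1 fusion, in a study of compounds aimed at the acetyltransferases CBP and p300. Its 4 RNA-seq libraries (100 nM and 1 µM, each for 2 h and 6 h) were compared with 4 control libraries, which were DMSO at 2 h and 6 h and a condition labelled NT at 2 h and 6 h. These 8 libraries are all the libraries that carry those labels, among 20 RNA-seq libraries and 32 samples of all assays. The labels do not spell out NT, and they do not say how JQAD acts. No gene change other than that of the line itself is given for any of the groups, and cells were plated the day before treatment and held in the same medium with serum. The other compounds (A485, dCBP and IHK-44) had the same doses and times, with 4 libraries each.

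CBP and p300, encoded by CREBBP and EP300, are closely related co-activators that acetylate histones at enhancers and promoters and bind many transcription factors. In alveolar rhabdomyosarcoma the fusion factor PAX3-FOXO1 binds enhancers of a small set of regulators, among them MYOD1, MYOG, MYCN and SOX8, and genes driven by such enhancers are known to be sensitive to loss of acetylation. A degrader of such a protein recruits an E3 ubiquitin ligase, often the one that contains cereblon (CRBN), so that the protein is lost while its transcript need not change. RNA levels therefore do not show whether JQAD removed any protein in these cells.

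The title of the study names the density of CpG islands, and a pair of promoters shows the contrast among the genes described below. They are the RefSeq sequences (GRCh38.p14) of the 250 bases before the start site, 5′ to 3′ in the sense of the gene, with each CG pair in capitals. EP300, one of the genes the compounds are aimed at, lies at chr22:41092342-41092591 on the + strand and holds 35 CG pairs there. MYOG, a muscle regulator that dCBP and IHK-44 lowered, lies at chr1:203086013-203086262 on the - strand and holds 10.
EP300: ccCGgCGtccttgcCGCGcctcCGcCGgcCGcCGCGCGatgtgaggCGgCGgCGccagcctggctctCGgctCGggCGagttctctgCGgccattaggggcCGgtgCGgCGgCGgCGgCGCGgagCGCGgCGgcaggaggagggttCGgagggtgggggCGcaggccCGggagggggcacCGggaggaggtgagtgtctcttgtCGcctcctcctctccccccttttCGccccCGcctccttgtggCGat
MYOG: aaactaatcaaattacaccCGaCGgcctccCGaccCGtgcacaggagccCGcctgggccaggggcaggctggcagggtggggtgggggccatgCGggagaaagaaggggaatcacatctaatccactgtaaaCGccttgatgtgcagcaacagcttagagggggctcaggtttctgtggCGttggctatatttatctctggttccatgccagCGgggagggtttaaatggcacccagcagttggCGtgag
Over the 35116 promoters of that table the median was 11 CG pairs in these 250 bases, and 93.9% held at least 1. At least 35 pairs were found in 5.8% of them and at most 10 pairs in 49.7%.

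Levels are given in CPM, expected counts divided by the coding total of their library. The 8 libraries held between 13518765 counts in coding genes (JQAD 100 nM at 6 h) and 16661051 (DMSO at 2 h). Every dose and time had 1 library, so the 4 JQAD libraries and the 4 controls stood in for replicates, with time as a term in the model. All p-values thus measure the spread between these 8 libraries, which the labels do not tie to separate cultures. The 10 rhabdomyosarcoma markers were all expressed, with a summed level of 3770 to 4140 CPM under JQAD and 3680 to 3940 CPM in the controls. Epithelial and blood cell markers summed to at most 3.16 CPM and 2.75 CPM in any of the 8 libraries, with 4 of 10 and 3 of 10 at 0 throughout, and endothelial markers to at most 5.37 CPM. Fibroblast markers summed to 2530 to 3080 CPM under JQAD and 2730 to 2830 CPM in the controls, of which the collagen COL3A1 had 2710 CPM. The share of reads outside coding genes was 5.72% to 7.46% under JQAD and 5.63% to 6.42% in the controls. Over 8 such library values the smallest p of the exact permutation test (two-sided) was 0.1714, and 0.714 after adjustment. Since 4 against 4 cannot go below 0.0286, a single value could not pass after adjustment over 8, so these tests say nothing of small differences.

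No gene passed the test for a change under JQAD. Of 12590 genes tested with edgeR's quasi-likelihood test, 0 (0%) had an adjusted p under 0.05, and the smallest adjusted p was 0.984. At an unadjusted p under 0.05 there were 480 genes (3.81%). DESeq2 also called 0 genes, with 242 at an unadjusted p under 0.05, and limma on log2(CPM + 1) called 0, with 514. Among the 10414 tested genes with a mean of at least 5 CPM, the fitted JQAD change reached 2-fold in 0 genes and 1.5-fold in 6. Those 6, named after their values were seen, were GALNT4, GPRASP1, NPIPB12, RSC1A1, TTN and UTP14C.

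A missed threshold does not show that a gene kept its level, so each change was also bounded. A gene was counted as bounded when a pair of one-sided tests placed its change inside a limit on both sides, with adjusted p under 0.05. By this rule 12172 genes (96.7%) were bounded within 2-fold and 11130 (88.4%) within 1.5-fold. The bound depended on the level of the gene. Below a mean of 1 CPM, where the median gene had 11.2 counts per library, 271 of 560 genes were bounded within 2-fold and 3 within 1.5-fold. From 1 to 5 CPM it was 1498 and 785 of 1616 genes. From 5 to 20 CPM, 2609 and 2556 of 2618 genes were bounded. At 20 to 50 CPM the numbers were 2948 and 2942 of 2949, and at 50 to 200 CPM they were 3758 and 3757 of 3758. At 200 CPM and over, 1088 and 1087 of 1089 genes were bounded. Of all 10414 genes with at least 5 CPM, 10403 (99.9%) were bounded within 2-fold and 10342 (99.3%) within 1.5-fold. The gene lists below stand beside these shares.

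The same bound can be read as a size. The farther end of the 95% interval of the JQAD change lay at a median of 2.25-fold for genes under 1 CPM and 1.59-fold at 1 to 5 CPM. It lay at 1.24-fold at 5 to 20 CPM, 1.15-fold at 20 to 50 CPM, 1.11-fold at 50 to 200 CPM and 1.1-fold at 200 CPM and over. For 95% of the genes at 20 to 50 CPM it was at most 1.26-fold, and for 95% of those at 50 to 200 CPM at most 1.2-fold. Of the genes with at least 5 CPM, 11 were not bounded within 2-fold: FLRT1, GPRASP1, H4C12, MAGED4B, NPIPB12, P2RY11, RSC1A1, TMEM225B, TRIM13, TTN and UTP14C. Several of these have near-identical copies or overlap another gene, or were high in 1 library only, as described below.

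**Figure D1:**
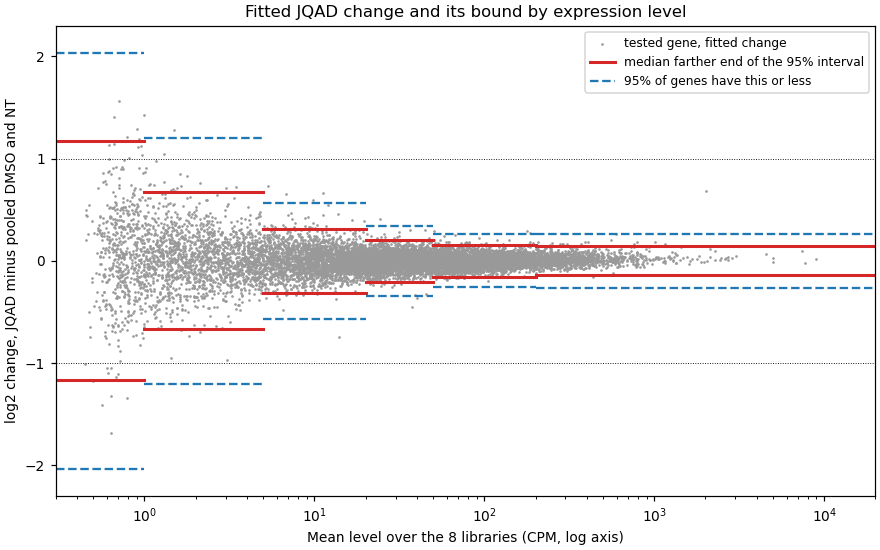
Fitted log2 change of each of the 12590 tested genes (JQAD minus pooled DMSO and NT) against its mean level in CPM on a log axis. Red lines give the median and blue dashed lines the 95% point of the farther end of the 95% interval in each level class, and dotted lines mark 2-fold. The bound narrows from 2.25-fold under 1 CPM to 1.1-fold at 200 CPM and over, and the point at a mean of 2010 CPM that stands apart is TTN.

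The genes of the proteins aimed at kept close to the controls. EP300 had 287 and 306 CPM under 100 nM and 1 µM JQAD at 2 h, against 271 CPM in DMSO and 313 CPM in NT. At 6 h it had 290 and 202 CPM, against 244 and 247 CPM. The 1 µM library at 6 h was thus the lowest of the 8 and the 100 nM library at 6 h lay above both its controls. The fitted EP300 change was 1.82%, with a 95% interval from -10.3% to 15.6%. CREBBP had 542 and 559 CPM at 2 h against 528 and 578 CPM, and 522 and 404 CPM at 6 h against 469 and 470 CPM, again with the lowest value under 1 µM at 6 h. Its interval ran from -9.32% to 10.2%. EP300 spans chr22:41092592-41180077 and CREBBP chr16:3725054-3880713 in GRCh38.p14.

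All 14 lysine acetyltransferases tested were bounded within 1.5-fold, with a median log2 change of -0.03 against 0.004 over all genes tested. The farthest was KAT2B, which encodes the acetyltransferase PCAF. It had 13.3 and 12.6 CPM at 2 h against 14 and 16.7 CPM, and 17.5 and 17.4 CPM at 6 h against 19.9 and 20.9 CPM, below both controls in all 4 JQAD libraries (log2 -0.22 ± 0.08 SE, adjusted p = 0.984 with edgeR). CRBN, the substrate receptor of the cereblon ligase, had 32.6 and 34.5 CPM at 2 h against 37.8 and 41.1 CPM. At 6 h it had 36.7 and 31.2 CPM against 36.6 and 38.5 CPM, so the 100 nM library overlapped the controls. Its interval ran from -19.9% to -2.32%, and its adjusted p was 0.984 with edgeR. All 12 components of the cereblon ligase and all 8 known cereblon substrates tested were bounded within 1.5-fold. So were 99.3% of all genes with at least 5 CPM, so full bounding does not set these lists apart.

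The regulators of rhabdomyosarcoma identity had the lowest list median under dCBP and IHK-44, and under JQAD they lay close to the controls. MYCN, a proto-oncogene and PAX3-FOXO1 target, had 68.1 and 66.6 CPM under JQAD at 2 h and 67.6 and 71.9 CPM at 6 h. The controls had 67.1 and 61.6 CPM at 2 h and 73.2 and 70 CPM at 6 h. With dCBP the MYCN level was 12.6 and 8.57 CPM at 2 h and 2.69 and 3.24 CPM at 6 h, so the groups did not overlap. The JQAD interval for MYCN ran from -5.79% to 10.2%. Set directly against the other compounds in a fit of all 20 libraries, MYCN was higher under JQAD than under A485 by a log2 value of 1.82 (SE 0.46, adjusted p = 0.0305 with edgeR), than under dCBP by 3.52 (SE 0.51, adjusted p = 0.000243) and than under IHK-44 by 4.34 (SE 0.54, adjusted p = 6.09e-05).

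MYOG, which drives terminal muscle differentiation, had 291, 287, 292 and 319 CPM in the JQAD libraries, and 264 to 300 CPM in the controls. Its interval ran from -3.17% to 12%. MYOD1, the master regulator of the muscle lineage, had 593 and 576 CPM at 2 h and 641 and 747 CPM at 6 h, against 590 and 508 CPM and 677 and 648 CPM (-2.8% to 16.8%). SOX8, a transcription factor of this tumour, had 780 to 951 CPM under JQAD and 809 to 870 CPM in the controls (-6.56% to 12%). The receptor gene FGFR4 had 743 to 928 CPM against 757 to 812 CPM (-3.63% to 17.2%). MYOD1, MYOG, SOX8 and FGFR4 were each highest of the 8 libraries under 1 µM JQAD at 6 h. PAX3 had 75.3 to 82 CPM against 72.6 to 78 CPM, and FOXO1 156 to 190 CPM against 169 to 186 CPM. Reads of the fusion transcript cannot be told apart from those of its 2 genes in a gene table.

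Of 15 rhabdomyosarcoma regulators tested, 15 were bounded within 1.5-fold, beside 99.3% of all genes with at least 5 CPM. Of the regulators, 0 had an unadjusted p under 0.05. Their median log2 change was 0.027, with a range of -0.09 (NHLH1) to 0.09 (MYOD1). In the fit of all 20 libraries the same genes had medians of -0.59 (A485), -1.71 (dCBP) and -1.41 (IHK-44). JQAD was higher than dCBP in 13 of the 15 (86.7%, against 18.6% of all genes) and higher than IHK-44 in 13 (86.7% against 18.5%). It was higher than A485 in 2 (13.3% against 2.66%), and lower than each of these compounds in 0. Of 21 PAX3-FOXO1 target genes tested, 20 were bounded within 1.5-fold, with a median of -0.026. The exception was ARHGAP25 with a fitted log2 change of -0.68. JQAD was higher than dCBP in 20 of these 21 (95.2%), than IHK-44 in 20 (95.2%) and than A485 in 3 (14.3%), beside the same shares of all genes. These comparisons all share the 4 control libraries where controls are used, while the direct contrasts between compounds do not use them as a reference. The list of target genes holds MYOD1 and other members of the list of regulators.

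**Figure D2:**
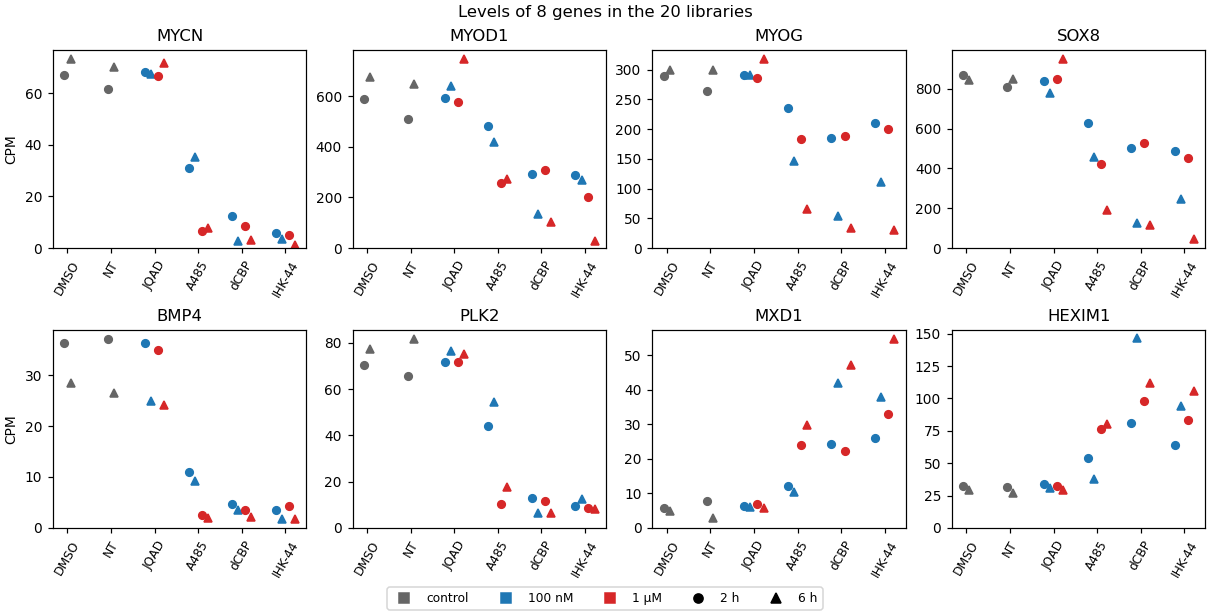
Level in CPM (linear axis from 0) of 8 genes in each of the 20 libraries. Colour gives the dose (grey, controls), circles are 2 h and triangles 6 h. MYCN under JQAD lies between 66.6 and 71.9 CPM, inside the control range of 61.6 to 73.2 CPM, while its values under dCBP lie between 2.69 and 12.6 CPM.

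The genes that responded most to both dCBP and IHK-44 gave a second reference. They were called for both compounds against the pooled controls, with a mean of at least 5 CPM in the controls. Of those, 489 were lower by a mean log2 value of at least 1, with medians of -1.45 (dCBP), -1.43 (IHK-44) and -0.77 (A485). Under JQAD the median of the 489 was -0.031, 90% of the values lay between -0.17 and 0.09, and the extremes were -0.38 and 0.24. JQAD bounds put 489 of 489 within 2-fold and 486 within 1.5-fold, and 36 of them (7.36%) had an unadjusted p under 0.05 against 3.81% of all genes. The medians were -0.022 and -0.078 for 1 µM JQAD at 2 h and 6 h, and -0.03 and -0.039 for 100 nM. Because these genes were selected against the same control libraries, a small negative median is not independent of that selection. They were also selected on the dCBP and IHK-44 libraries, so direct contrasts with those compounds are not given for them.

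Single members of this set show the same. BMP4, a secreted growth factor, had 36.3 and 35 CPM under JQAD at 2 h and 25 and 24.2 CPM at 6 h, against 36.3 and 37.1 CPM and 28.4 and 26.4 CPM in the controls. With 1 µM A485 it had 2.52 and 1.99 CPM. PLK2, a polo-like kinase gene, had 71.5, 71.5, 76.6 and 75 CPM under JQAD and 65.6 to 81.8 CPM in the controls. With 1 µM dCBP, whose libraries helped to choose PLK2, it had 11.8 and 6.49 CPM. MYC had 70.4 to 74 CPM against 63.4 to 75.6 CPM in the controls. SPRY1, an inhibitor of receptor tyrosine kinase signalling, had 94.4 to 100 CPM under JQAD and ZFP36L1, which binds and destabilises mRNAs, had 225 to 264 CPM, against 83.3 to 104 CPM and 245 to 253 CPM. FLRT3 and CASS4 had fitted log2 changes of -0.12 ± 0.08 and -0.07 ± 0.07 SE.

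Genes that rose under dCBP and IHK-44 did not rise under JQAD by a called amount either. Of 34 such genes with a mean log2 value of at least 1, the JQAD median was 0.061 and 33 were bounded within 1.5-fold. HEXIM1, an inhibitor of the elongation factor P-TEFb that rises when transcription is disturbed, had 34 and 32.3 CPM under JQAD at 2 h and 30.7 and 29.7 CPM at 6 h. Its controls had 32.1 and 31.4 CPM, and 29.3 and 27.1 CPM. Under 1 µM dCBP it had 98.1 and 112 CPM. The dCBP libraries helped to choose these genes, so their dCBP levels are a description. MXD1, which opposes MYC by binding MAX, had 5.85 to 7.05 CPM against 2.86 to 7.88 CPM, and 22.3 and 47.2 CPM with 1 µM dCBP. MXD1 was not bounded within 1.5-fold (log2 0.28 ± 0.19 SE). MSX1, EGR1, SUOX and AGFG2 had fitted log2 changes of 0.25, 0.17, 0.18 and 0.17, and CNNM4 and DPF1 had -0.06 and 0.1.

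Gene lists were described by their counts and medians. Of 44 lists, 42 had tested members, and 0 members of any of them were called. The medians of signalling and stress programmes lay near 0. The 27 immediate early genes had a median of 0.061, with 26 bounded within 1.5-fold and 3 (11.1%) at an unadjusted p under 0.05. Among them JUND, a subunit of AP-1, had 56 and 56.4 CPM at 2 h against 49.6 and 44 CPM, but 40.8 and 49.1 CPM at 6 h against 41.5 and 39.8 CPM. The 16 ERK feedback genes had a median of 0.051, the 20 BMP pathway genes -0.033, the 13 cAMP response genes -0.012, the 13 Notch pathway genes -0.016 and the 17 YAP and TEAD targets -0.003. The 19 p53 response genes had 0.011, the 18 hypoxia response genes -0.03, the 19 heat shock genes 0.017, the 24 ATF4 stress genes -0.004 and the 24 cholesterol synthesis genes 0.053. At an unadjusted p under 0.05 there were 4 of the 20 BMP pathway genes (20%), 4 of the 24 cholesterol genes (16.7%) and 3 of the 24 ATF4 genes (12.5%), against 3.81% of all genes, and 0 of the p53 genes. All members of the p53, heat shock, ATF4 and cholesterol lists were bounded within 1.5-fold, as were 99.3% of all genes with at least 5 CPM.

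Within these lists the largest changes among members of at least 5 CPM were small. ASNS, asparagine synthetase and an ATF4 target, had 20.2 and 21.7 CPM at 2 h and 21 and 18.9 CPM at 6 h, against 24.7 and 22.3 CPM and 23.9 and 23.5 CPM, below both controls of its time in all 4 libraries (log2 -0.19 ± 0.07 SE). MVK, mevalonate kinase of the cholesterol pathway, had 42.3 CPM under 1 µM at 6 h against 28.7 and 32.1 CPM, and 27.2 to 33.1 CPM in the other JQAD libraries. HSPA4L, a chaperone of the HSP110 family, had 34.9 to 39.8 CPM against 41.2 to 45.9 CPM in the controls, with no overlap (log2 -0.16 ± 0.06 SE). BMF, a pro-apoptotic BH3-only gene, had 118 and 121 CPM at 2 h against 130 and 145 CPM, and 72 and 77.1 CPM at 6 h against 79.5 and 93.5 CPM. Its fitted log2 change of -0.2 was -0.1 with DMSO alone and -0.29 with NT alone as control. All 4 of these genes had an adjusted p of 0.984 with edgeR.

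Lists with fewer reads had wider bounds. Of 10 NF-kB response genes 6 were bounded within 1.5-fold, of 17 interferon response genes 11, of 33 collagen genes 21 and of 21 HOX genes 16. Their medians were -0.066, -0.051, 0.033 and -0.051. HOXA5 had 4.96 and 4.37 CPM at 2 h and 3.92 and 4.84 CPM at 6 h, against 5.58 and 6.5 CPM and 6.15 and 5.28 CPM (log2 -0.36 ± 0.14 SE). Among 27 sarcomere and muscle differentiation genes 22 were bounded within 1.5-fold, with a median of 0.019, and the exceptions were MYH8, MYH7, TNNC1, TTN and NEB. The 454 ZNF genes tested, many of which encode DNA-binding repressors, had a median of -0.016, with 403 bounded within 1.5-fold. In the same list JQAD was lower than dCBP in 175 genes (38.5%, against 19.8% of all genes) and higher in 27 (5.95% against 18.6%). It was lower than IHK-44 in 204 (44.9% against 17%) and higher in 31 (6.83% against 18.5%). It was lower than A485 in 106 (23.3% against 4.29%) and higher in 5 (1.1% against 2.66%).

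Every tested member of 4 lists of growth and cell cycle genes was bounded. All 35 DNA replication genes (median 0.024), all 34 mitotic genes (-0.053), all 30 ribosome biogenesis genes (0.046) and all 16 G1 cyclin and CDK inhibitor genes (0.028) were within 1.5-fold. All 12 BET and elongation genes were too, with a median of 0.016. Over all genes with at least 5 CPM the share was 99.3%, so full bounding does not set these lists apart. Mitotic genes had 4 of 34 (11.8%) at an unadjusted p under 0.05, against 3.81% of all genes. Their medians were -0.06 and -0.021 under 1 µM and 100 nM at 2 h, and -0.143 and -0.078 at 6 h. CENPA, the centromeric histone H3, had 27.2 and 22.6 CPM at 2 h against 23.1 and 29.4 CPM, and 22.6 and 23.4 CPM at 6 h against 30.1 and 26.1 CPM.

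The remaining lists were 6 metallothionein and zinc genes (median -0.007), 15 circadian clock genes (0.008), 13 BCL2 family genes (-0.017), 12 genes of the MYC and MAX network (0.016), 19 KLF and SP genes (-0.025), 10 SOX genes (0.043) and 14 aryl hydrocarbon and NRF2 response genes (0.024). Of these, 6, 13, 13, 11, 18, 9 and 13 genes were bounded within 1.5-fold. SOX11 of the SOX list had 134 to 151 CPM under JQAD and 132 to 139 CPM in the controls. KLF9, a glucocorticoid-responsive factor, had 17.2 and 19.4 CPM at 2 h against 23.1 and 23.5 CPM, but 14.3 and 14.7 CPM at 6 h, between its controls of 16.9 and 13.1 CPM. The 8 cereblon substrates had a median of -0.021 and the 12 cereblon ligase components 0.008. In the marker lists, 7 fibroblast markers had a median of -0.105, and 1 epithelial, 1 blood cell and 2 endothelial markers were tested.

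Among lists of at least 20 tested genes, those of histones, ribosomal proteins and the respiratory chain had the highest medians, and the libraries differed in sign. The 49 histone genes had a median of 0.103, the 82 cytosolic ribosomal protein genes 0.073, the 80 respiratory chain genes 0.071 and the 78 genes of the mitochondrial ribosome 0.032. For the histone genes the medians were 0.348 under 100 nM at 2 h and 0.189 under 1 µM at 6 h, but -0.069 under 1 µM at 2 h and -0.079 under 100 nM at 6 h. Ribosomal protein genes followed the same split, with 0.194 and 0.079 against -0.022 and -0.081, and respiratory chain genes did too (0.147 and 0.115 against -0.019 and -0.06). Dose and time thus gave no common direction. Gene length moved with this split: with the tested genes in 5 classes of length, in the shortest class (up to 1891 bases) the medians were 0.056 and 0.065 in the first pair of libraries and -0.04 and -0.057 in the second. In the longest class (from 5529 bases) they were -0.04, -0.081, -0.001 and 0.067, and NT at 2 h exceeded DMSO by 0.092. The share of reads outside coding genes was 7.46% and 6.57% in the first pair and 5.72% and 5.93% in the second. The part of length or of RNA quality in these medians was not tested.

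**Figure D3:**
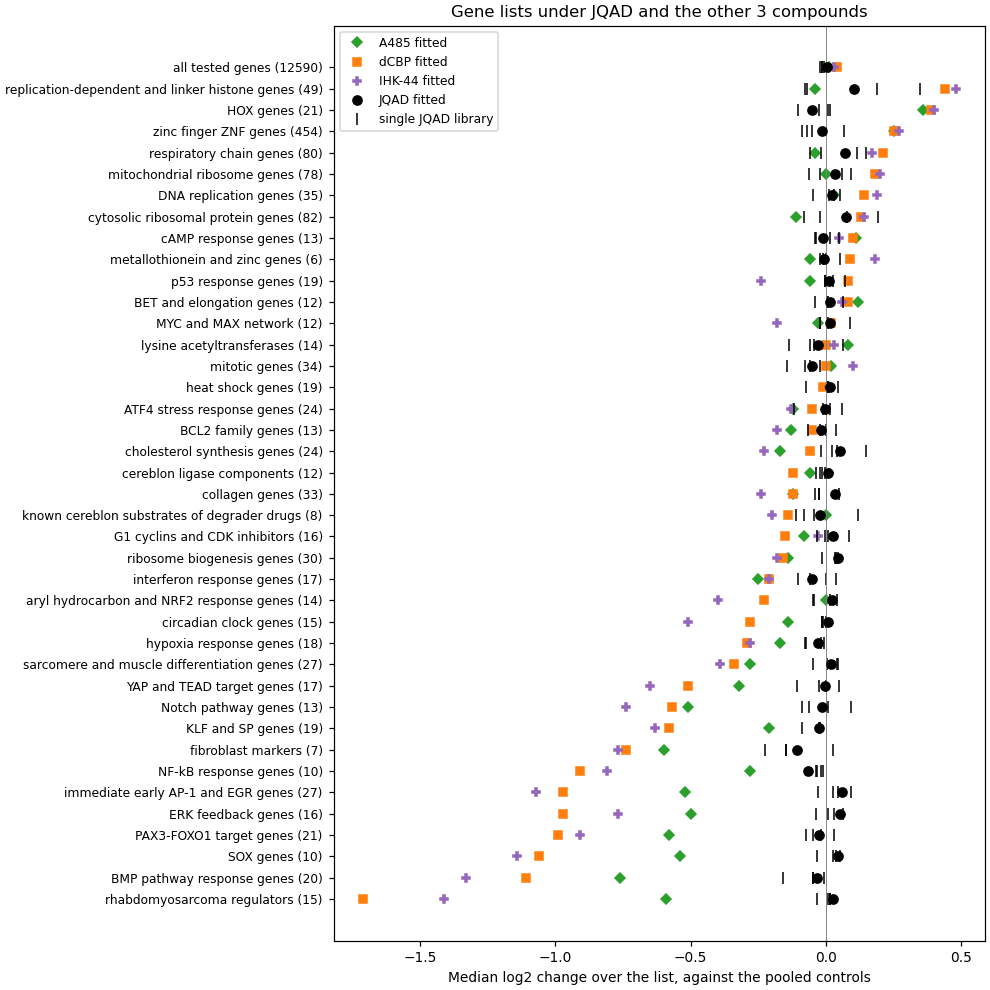
Median log2 change over each list with at least 6 tested members (number in brackets), ordered by the dCBP median. Black circles are the JQAD fit, black ticks the 4 single JQAD libraries against the mean of their 2 controls, and coloured symbols the other compounds in the fit of 20 libraries. JQAD medians lie between -0.105 and 0.103, while the rhabdomyosarcoma regulators reach -1.71 with dCBP.

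The JQAD medians were near 0 at every promoter CG content. A promoter was found in the RefSeq table for 10283 of 12590 tested genes (81.7%), and they were split into 5 classes of equal size by the number of CG pairs in 300 bases (250 before and 50 after the start, mean over listed starts). The JQAD medians from the fewest to the most CG pairs were 0.001, 0.003, 0.003, 0.003 and 0.009, with 3.45%, 4.09%, 3.26%, 3.55% and 3.99% of genes at an unadjusted p under 0.05. In the same classes, of 2055 to 2057 genes each, dCBP lowered 515, 357, 351, 398 and 411 genes by a called amount. It raised 356, 463, 466, 460 and 445. Over all genes tested, dCBP lowered 2549 of 12585 and raised 2652. The lowest class, to which MYOG belongs, also had the lowest median level (15.7 CPM against 49.3 CPM in the highest) and the widest JQAD bounds. There 75.9% of genes were within 1.5-fold against 94.6% in the highest class.

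The genes with the lowest unadjusted p among those on one side of both controls in all 4 JQAD libraries had fitted log2 changes between -0.48 (ARV1) and 0.66 (GALNT4). On CPM, 181 of 12030 genes (1.5%) were above both controls of their time in all 4 JQAD libraries and 557 (4.63%) were below. With CPM divided by the TMM factors, a scaling for composition, the counts were 264 and 388. The higher side held EXOSC6, a subunit of the RNA exosome, at 50.4 to 56.4 CPM against 43.8 to 50.7 CPM. RPS29, a ribosomal protein gene, had 82 and 67.2 CPM at 2 h and 66 and 76 CPM at 6 h, against 61 to 62.9 CPM in the controls. NDUFAF8, an assembly factor of complex I, had 17.5, 16.3, 17.8 and 23.6 CPM against 14 to 15.2 CPM. The fitted log2 changes were 0.2, 0.25 and 0.4. MIEF2, GYG2, TMEM258 and NOP9 had 0.35, 0.27, 0.24 and 0.17. Against the same controls in the fit of all 20 libraries, EXOSC6, RPS29 and NDUFAF8 had 0.37, 0.3 and 0.48 under dCBP and 0.31, 0.36 and 0.25 under IHK-44. MIEF2, GYG2, TMEM258 and NOP9 had 1.23, 0.37, 0.22 and 0.31 under dCBP and 1.02, 0.2, 0.29 and 0.26 under IHK-44.

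GALNT4, which encodes a transferase that starts O-glycans, had 7.19 and 8.85 CPM at 2 h against 3.44 and 4.26 CPM, and 8 and 8.87 CPM at 6 h against 6.45 and 7.52 CPM. Its log2 change of 0.66 ± 0.17 SE (unadjusted p = 0.00188) was the largest of this set. The gene lies within POC1B, whose own level was 10.2 to 11.6 CPM under JQAD and 10.3 to 13.1 CPM in the controls, so the split of reads between the 2 genes is uncertain. On the lower side, MCHR1, a receptor for melanin-concentrating hormone, had 13.6 and 12.3 CPM at 2 h against 16 and 18.9 CPM, and 9.62 and 10.8 CPM at 6 h against 11.8 and 14.3 CPM (log2 -0.38 ± 0.1 SE). HIGD1A, a mitochondrial protein gene, had 61.3 to 67.9 CPM against 72.3 to 75.9 CPM (log2 -0.17 ± 0.05 SE). ZBTB6, LGR4, PARPBP, RAD17 and ARV1 had -0.22, -0.19, -0.24, -0.24 and -0.48. Every one of these genes had an adjusted p of 0.984 under JQAD with edgeR. In the fit of all 20 libraries, GALNT4, MCHR1 and HIGD1A had log2 values of 0.49, -2.78 and -0.36 under dCBP and 0.45, -2.62 and -0.17 under IHK-44. ZBTB6, LGR4, PARPBP, RAD17 and ARV1 had 0.18, -0.69, -0.18, -0.13 and -0.25 under dCBP and 0.38, -0.6, -0.04, 0.12 and 0.02 under IHK-44. The genes were picked against the same control libraries, so a shared direction is not independent of that choice.

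Dose gave no called gene. Between 1 µM and 100 nM JQAD, 0 of 12756 genes (0%) passed edgeR's test, with 825 (6.47%) at an unadjusted p under 0.05 and a smallest adjusted p of 0.725. The lowest p belonged to RGPD6, one of a family of near-identical copies. It had 44.7 and 44.1 CPM at 100 nM and 27.4 and 20.4 CPM at 1 µM, against 36.5 to 50.6 CPM in the controls. TBC1D3L and POLR2J2, also members of copied families, had log2 changes of -1.02 and -0.64. TM9SF1, a transmembrane protein gene, had 70.7 and 71.1 CPM at 100 nM and 82.3 and 83.9 CPM at 1 µM, with 75.8 to 77.5 CPM in the controls. CHTF8, which loads the replication clamp, had 65.5 and 55.7 CPM against 75.7 and 83.2 CPM. Without the 100 nM library at 2 h the count rose to 125 genes, of which 112 were lower at 1 µM, so that the 100 nM dose was then represented by its 6 h library alone. Without the 100 nM library at 6 h it was 2, and with the 4 JQAD libraries alone 6.

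Bounds were also fitted for each dose over both times and for each time over both doses, with fewer libraries. No single dose at a single time was bounded. Over all 12756 genes tested, 79.2% (6 h) to 83% (1 µM) were bounded within 1.5-fold, against 88.4% in the pooled fit. Not bounded within 2-fold were 935 (1 µM) to 1354 (6 h) genes, against 418. Among genes of at least 5 CPM, 10183 of 10414 (97.8%) were bounded within 1.5-fold for 1 µM alone and 10182 (97.8%) for 100 nM alone. For 2 h alone it was 10027 (96.3%) and for 6 h alone 9932 (95.4%). None of these genes was called in any of the 4 subsets by edgeR, with 707, 374, 194 and 367 of them at an unadjusted p under 0.05. H2AC19, a lower gene with a near-identical copy, was called for 1 µM, for 100 nM and for 2 h.

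A change of the JQAD effect between 2 h and 6 h was called for 0 of 12756 genes (0%) by edgeR, with 320 (2.51%) at an unadjusted p under 0.05. The lowest p was that of ASB3, a gene of a ubiquitin ligase adaptor, with 21.1 and 25.6 CPM at 2 h against 16.6 and 13.8 CPM, and 17.2 and 14.1 CPM at 6 h against 29.6 and 20.1 CPM. ANK3 (ankyrin-G) and MRM3 (a mitochondrial RNA methyltransferase) had interaction values of -0.6 and -0.5 on the log2 scale, and P2RY11, H3C14 and ZNF419 had 2.32, 1.5 and 0.8. Without the 1 µM library at 6 h, 2 genes were called.

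Distances between libraries were compared with what counting alone would give. Over 12031 genes of at least 1 CPM, the root mean square log2 ratio of CPM + 1 was 0.206 between DMSO and NT at 2 h and 0.161 at 6 h, where counting error alone gave 0.119 and 0.123. Between JQAD and control libraries it was 0.178 to 0.216 at 2 h, which brackets the distance of the controls. At 6 h it was 0.196 to 0.232, above that of the controls. The largest distance of all 12 pairs was between the 2 JQAD libraries at 6 h, at 0.274, against 0.19 at 2 h. At 200 CPM and over the order was the other way at 2 h, with 0.144 between the controls, 0.085 to 0.122 between JQAD and controls and 0.103 between the JQAD libraries. The 6 h values at that level were 0.051 between the controls, 0.127 to 0.133 between JQAD and controls and 0.213 between the JQAD libraries. At 6 h the JQAD libraries thus differed from the controls by more than the controls differed, and from each other by more still. With 1 library per condition this has no test.

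**Figure D4:**
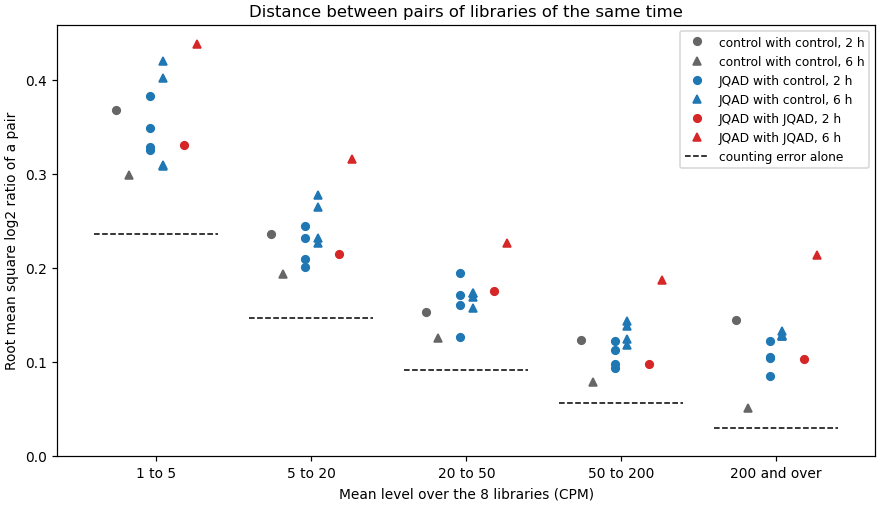
Root mean square log2 ratio (CPM + 1) of each pair of libraries of the same time, by mean level. Grey are the 2 controls, blue JQAD with a control, red the 2 JQAD doses, circles 2 h and triangles 6 h, and dashed lines the value expected from counting error alone. At 200 CPM and over the 2 JQAD libraries at 6 h are 0.213 apart and the controls 0.051.

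The JQAD 100 nM library at 6 h stood apart from the other 3 of its time. On CPM + 1, at least 2-fold above all 3 were 33 genes, and 1 was as far below, while the other 7 libraries had at most 2 above and 3 below. Against both controls of its time, again on CPM + 1, it had 40 of 12031 genes at least 2-fold higher (0.332%) and 1 lower (0.00831%). The 1 µM library at 6 h had 0 (0%) and 3 (0.0249%), the 100 nM library at 2 h 2 (0.0166%) and 4 (0.0332%), and the 1 µM library at 2 h 0 (0%) and 2 (0.0166%). The most abundant of the 40 was TTN, the giant sarcomere protein titin, with 4780 CPM against 1240 and 1400 CPM in the 6 h controls and 1060 CPM under 1 µM. FLRT1, a membrane adhesion protein gene, had 27.8 CPM against 7.74 and 8.75 CPM and 6.07 CPM under 1 µM. TRIM13, a ubiquitin ligase gene, had 20 CPM against 7.4 and 6.78 CPM, and GOLGA8A, a golgin of a copied family, had 74.4 CPM against 35.9 and 28.1 CPM. The median mean level of the 40 genes was 3.21 CPM against 35.5 CPM over all genes considered, and their median length 4650 against 3365 bases. Genes were considered if their mean over all 8 libraries was at least 1 CPM. Some low genes among the 40 therefore entered only through the 100 nM library at 6 h, which raises its count. GRIK1 had 4.96 CPM in it and 0.18 to 1.44 CPM in the other 7.

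The same genes varied in control libraries that share no sample with this contrast. At 2 h, 39 of the 40 were higher in NT than in DMSO, against 51% of all genes. On CPM + 1, at least 1.5-fold higher in NT were 28 of the 40, where 256 of 12031 genes (2.13%) were. TTN had 2620 CPM in NT at 2 h and 908 CPM in DMSO, FLRT1 14.6 and 6 CPM, and TRIM13 11.9 and 4.85 CPM. The median log2 ratio of NT to DMSO at 2 h was 0.8 for the 40 genes. It was 1.32 for 100 nM JQAD at 6 h and -0.1 for 1 µM at 6 h against the mean of the controls. By median, both JQAD libraries at 2 h lay between DMSO and NT, at 0.01 against the mean of the 2 controls. The level of these genes was above both 6 h controls in 40 of 40 with A485 at 100 nM and at 1 µM for 6 h, where 47.2% and 59.9% of all genes were. With dCBP it was 17 and 27 of 40 at 100 nM and 1 µM (56.5% and 63.8% of all genes), and with IHK-44 25 and 23 (62% and 63.7%). The 40 genes were chosen for their level in 1 library, so their height there is a description.

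**Figure D5:**
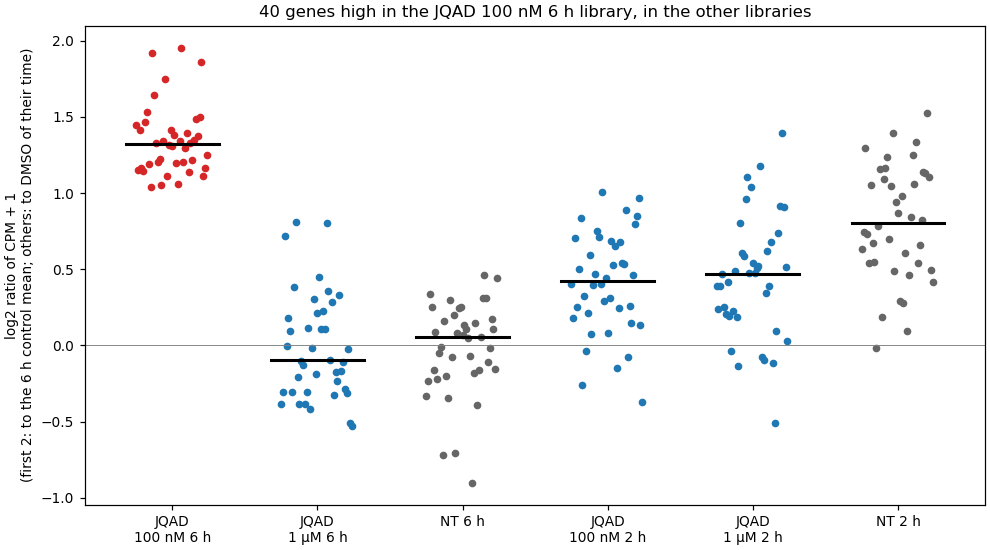
Log2 ratio of CPM + 1 for the 40 genes at least 2-fold above both controls in the JQAD 100 nM 6 h library (red, the library used to choose them), with bars for medians. The 6 h JQAD libraries are set against the mean of the 6 h controls, and all other columns against DMSO of their time, so the 2 h columns share the DMSO library. The medians are 1.32 for 100 nM and -0.1 for 1 µM at 6 h, 0.05 for NT at 6 h, 0.43 and 0.47 for 100 nM and 1 µM JQAD at 2 h and 0.8 for NT at 2 h.

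Without the 100 nM library at 6 h the test against the controls called 3 of 12680 genes, against 0 of 12590 with it. At an unadjusted p under 0.05 there were 1319 of 12680 genes without it and 480 of 12590 (3.81%) with it. Leaving out any other single library gave 260 to 540, so this count depended on the 100 nM library at 6 h. The 3 genes called without it, chosen here by that result, were H2AC19 and RSC1A1 (lower) and FSBP (higher). H2AC19 alone was called without DMSO at 6 h, NT at 6 h or any 1 of the other 3 JQAD libraries. RSC1A1 had 8.17 and 8.51 CPM under 100 nM and 1 µM JQAD at 2 h against 13.4 and 19 CPM in the controls. At 6 h it had 17.8 and 7.68 CPM against 16.6 and 21.1 CPM. Its log2 change was -1.07 ± 0.13 SE without that library (adjusted p = 0.000823 with edgeR) and -0.75 ± 0.2 SE with it (adjusted p = 0.984). RSC1A1 is a gene with no introns that lies within DDI2, and DDI2 had 138 to 188 CPM under JQAD and 128 to 180 CPM in the controls, so the assignment of its reads is uncertain. FSBP had 1.25, 0.637 and 0.682 CPM in 3 JQAD libraries and 0 CPM in the other 5 of the 8 libraries compared, and shares its locus with RAD54B.

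Several of the largest single-library differences fell on genes whose reads are divided among near-identical copies. H2AC19, a histone H2A gene, was listed at 15.5 and 16.4 CPM in the 2 h controls and at 0 CPM in all 4 JQAD libraries and both 6 h controls, while its copy H2AC18 had 1210 to 1830 CPM. MAGED4B had 0 CPM under 1 µM at 2 h and 11.1 to 75.7 CPM in the other 7 libraries. The sum of MAGED4 and MAGED4B was 135 to 156 CPM in all 8. The sulfotransferase genes SULT1A3 and SULT1A4 summed to 2.81 to 6.98 CPM under JQAD and 2.88 to 10.5 CPM in the controls, although SULT1A3 alone ranged from 0.162 to 8.65 CPM. UTP14C, a copy of UTP14A with no introns, had 3.19 CPM under 1 µM at 6 h and 16.4 to 17.5 CPM in the other JQAD libraries, with 2.13 to 13.9 CPM in the controls. P2RY11 adjoins PPAN and is joined to it in some transcripts, and had 6.15 CPM under 100 nM at 6 h against 1.52 and 0.349 CPM, with 10.9 to 13.1 CPM at 2 h. Differences in such genes are uncertain.

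Set directly against the other compounds, which had the same doses and times, JQAD differed from each. The fit of all 20 libraries had compound and time terms but no dose term, so dose differences within a compound counted as spread. Its common biological coefficient of variation was 0.135, against 0.065 in the fit of JQAD and controls. In the fit of all 20 libraries (13001 genes), 4954 genes (38.1%) differed between JQAD and dCBP, 2343 higher and 2611 lower under JQAD. Against IHK-44 there were 4548 (35%), 2325 higher and 2223 lower. Against A485 there were 888 (6.83%), 335 higher and 553 lower, and this last count moved with single libraries. It was 158 without 1 µM JQAD at 6 h, 547 without 1 µM at 2 h, 459 without 100 nM at 2 h and 600 without 100 nM at 6 h. In the same fit, against the pooled controls, JQAD had 0 called genes with 131 at an unadjusted p under 0.05. A485 had 369 lower (2.84%) and 502 higher (3.86%), dCBP 2552 lower (19.6%) and 2792 higher (21.5%), and IHK-44 2376 lower (18.3%) and 2229 higher (17.1%). Of genes with at least 5 CPM in the 8 libraries, the fitted change reached 2-fold in 0 under JQAD, 133 under A485, 547 under dCBP and 544 under IHK-44. Fitted on the 8 libraries of each pair alone, with dose and time, the direct contrasts gave 697 genes with A485, 2358 with dCBP and 3505 with IHK-44. The labels give no other dose or time for JQAD, so effects beyond 6 h or above 1 µM were not measured.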

How the data were processed

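RNA-seq libraries were described by group from the labels, with 1 library per dose and time. Reads were processed with STAR 2.5.3a and RSEM 1.3.3, with hg38 among the builds, per the submitters' processing notes, which give neither role nor order. The expected counts were the authors' estimated reads per gene, deposited for 18980 coding genes, and 88.2% of the values were whole numbers. The deposited CPM were the expected counts divided by the coding total of a library. TPM deposited by the authors was used for 1 alternative, and FPKM deposited by the authors only to recover total reads, from genes with an FPKM over 50.

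The rounded expected counts went into edgeR 4.0.16 (R 4.3.3), quasi-likelihood, TMM scaling and filterByExpr, over the 4 JQAD and 4 control libraries with a time term. The fit had 5 residual degrees of freedom and a common biological coefficient of variation of 0.065. Intervals (95%) and the paired one-sided tests of a bound used the fitted standard error, and all p-values were Benjamini-Hochberg adjusted over all genes tested. Dose and time dependence were fitted on the same 8 libraries. Contrasts with other compounds were fitted on all 20 (14 residual degrees of freedom), with a time term and no dose term. Ratios of single libraries were log2(CPM + 1), which understates changes of low genes. In the 8 libraries 1 CPM is worth 13.5 to 16.7 counts, which limits the precision of low genes. The fits were tested on simulated counts. Python 3.11.15 with scipy 1.17.1 and pandas 2.3.3 did the rest, with DESeq2 1.42.0 and limma 3.58.1 as alternatives.

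The members, gene lists and tests were chosen with earlier results of these data known. Named genes were 10 fixed genes, the 8 lowest p in each direction among genes on one side of both controls in all 4 libraries, 16 genes called for both dCBP and IHK-44, the farthest member of each list at 5 CPM or more, the 3 lowest p in each direction for dose and for time, and the largest rises (5) and falls (3) of each JQAD library. The ChIP-seq (11) and ChRO-seq (1) samples were not analysed here. Mitochondrially encoded and clustered protocadherin genes had no tested member and were not analysed here.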

Additional observations from a re-analysis of the deposited data

Results flagged for a closer look

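Among 116 values tested, a single JQAD library lay far from the other 3 in 5. UTP14C, RSC1A1 and FLRT1 had been named for a large rise or fall in a single JQAD library. The count therefore cannot be set against a chance rate. EGR1 had 8.46 CPM under 100 nM at 2 h against 5.8 to 6.21 CPM in the others. COL16A1 had 29 CPM under 100 nM at 6 h against 32.7 to 33.3 CPM. UTP14C had 3.19 CPM under 1 µM at 6 h against 16.4 to 17.5 CPM. RSC1A1 and FLRT1 had 17.8 CPM and 27.8 CPM under 100 nM at 6 h, against 7.68 to 8.51 CPM and 6.07 to 9.58 CPM. Doses and times differ within these 4 libraries, and a far library was not tested against either.

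The response to JQAD differed from that to the other compounds by a direct test in the fit of all 20 libraries (edgeR). A485 and JQAD differed in 888 genes, dCBP and JQAD in 4954, and IHK-44 and JQAD in 4548.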

How the results depend on the processing

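The count of 0 called genes was also 0 with DESeq2 size factors in edgeR, with DESeq2 itself, with DMSO alone or NT alone as control, without the time term, in the fit of all 20 libraries and with limma on log2(CPM + 1) or log2(CPM + 0.1). With no filter on low counts it was 1 (H2AC19), and with limma on log2(TPM + 1) it was 5, all lower (H2AC19, H4C12, MAGED4B, RSC1A1 and SULT1A3). Leaving out 1 library at a time gave 0 to 3, with 3 without JQAD 100 nM at 6 h. In the fit of all 20 libraries, dose differences within the other compounds also counted as spread. Its common biological coefficient of variation was 0.135 against 0.065, so its 0 adds little. The genes bounded within 2-fold and within 1.5-fold numbered 11787 to 12167 and 10510 to 11127 over the other settings, and 11958 to 12154 and 10823 to 11016 with 1 library left out. For dose the count was 6 with the JQAD libraries alone and 0 to 125 with 1 library left out, and for time dependence 0 to 2. The direct contrast with A485 gave 158 to 600 genes with 1 JQAD library left out, that with dCBP 3629 to 4761, and that with IHK-44 3064 to 4448. On the 8 libraries of the pair alone, dCBP gave 2358. The causes were not tested. H2AC19 and FSBP did not pass the filter of the main fit and are left out of the next counts, though both were called in some settings. Of 1484 refits of the other 106 named genes, 1472 stayed within 1 SD of the value given and 11 moved further. The remaining 1 (RSC1A1 without JQAD 100 nM at 6 h) passed the threshold. The fitted log2 change of TTN was 0.68 with that library and 0.016 without it. No paired analysis was possible because the replicate numbers only name doses and times, and time is already a term of the fit. Below 5 CPM the depth leaves many changes of 1.5-fold undetectable.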
